A study of Mus musculus with 12 samples.

Results

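Claudins are the membrane proteins that seal neighbouring epithelial cells at the tight junction and decide which ions and how much water pass between them. In the kidney each stretch of the nephron carries its own set, so that paracellular transport differs from segment to segment. Claudin-2 forms a cation and water pore in the proximal tubule, claudin-10 forms ion pores in the proximal tubule and the thick ascending limb, and claudin-16 and claudin-19 together carry calcium and magnesium through the thick ascending limb. Claudin-12 takes part in calcium passage in the proximal tubule. Claudin-3, claudin-4, claudin-7 and claudin-8 are found in the distal nephron and collecting duct, and claudin-1 is known from the parietal cells of Bowman's capsule. The 10 genes described here, *Cldn1*, *Cldn2*, *Cldn3*, *Cldn4*, *Cldn7*, *Cldn8*, *Cldn10*, *Cldn12*, *Cldn16* and *Cldn19*, were chosen by symbol from the 23420 genes of a table of raw counts. All 10 were in the table, and 9 of them passed the filter on low counts that left 11664 genes for testing. *Cldn8* did not pass.

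The table holds 12 kidneys of adult male C57BL/6J mice, 4 in each of 3 groups, sequenced as poly(A) RNA from whole kidney. The 4 control kidneys were removed at nephrectomy, and the 8 others were taken 24 h after a clamping of the renal pedicle of 20 min, performed either in conscious mice or under general anaesthesia. The labels give the clamping protocol for the controls too, although the study's methods describe them as normal kidneys from nephrectomy. For these 8 kidneys, title and group field name opposite conditions, so the kidneys titled ISCH_ANESTH with the group field ISCHEMIA conscious are called set A, and those titled ISCH_CONCIOUS with the group field ISCHEMIA anesthesia are called set B. No direction is assigned to anaesthesia. Total counts lay between 15367342 and 44793350 per kidney, and a detection floor of 3 counts corresponded to between 0.0661 and 0.19 CPM (counts relative to the library total, scaled here by TMM factors), which covers counting error only. Zeros beside well-counted kidneys were common at low counts. Of the 1720 tested genes whose highest control count lay between 30 and 100, 1183 (68.8%) had no count at all in at least 1 other control kidney. *Cldn3*, *Cldn4* and *Cldn16* were 3 of these 1720 genes.

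In both ischemia sets the make-up of the claudin transcripts differed from that of the controls, while their summed level was close to it. *Cldn7* and *Cldn1* rose, *Cldn10* and *Cldn2* fell, and the other tested members did not pass the threshold. In edgeR's quasi-likelihood test, 4 of the 9 tested members had an adjusted p below 0.05 in set A against control, 2 higher and 2 lower, beside 22.3% of all genes tested (10.5% higher and 11.7% lower). In set B against control the count was also 4, 2 higher and 2 lower, beside 22.8% of all genes (10.9% higher and 11.9% lower). Both comparisons share the same 4 control kidneys. The tested members had a median log2 fold change of -0.35 (set A) and -0.18 (set B), beside -0.02 over all genes in each comparison. The CPM of all 4 set A kidneys lay above all controls for 3 members (*Cldn1*, *Cldn4* and *Cldn7*) and below them for 3 (*Cldn2*, *Cldn10* and *Cldn12*), beside 12.6% and 15.7% of all genes, 28.2% in either direction. For set B this held for 2 higher (*Cldn1* and *Cldn7*) and 2 lower members (*Cldn2* and *Cldn10*), beside 11.6% and 15.1%, or 26.7% in either direction. In whole-kidney RNA, fewer cells of a type and less RNA per cell cannot be told apart. By the study's methods the clamp was placed at a surgery before the clamping, while the controls were removed at nephrectomy. Clamping, surgery and time therefore cannot be told apart in either comparison with the controls.

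**Figure D1:**
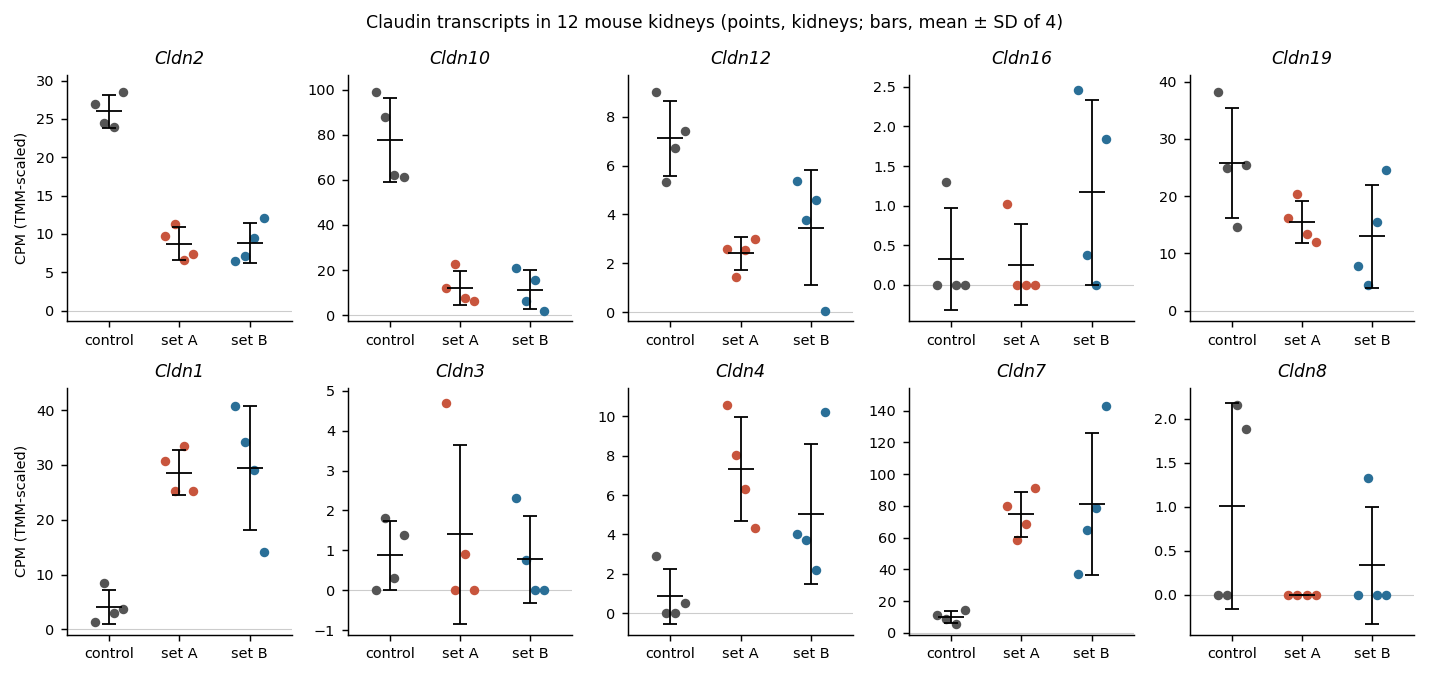
CPM of each of the 10 claudins (vertical axes, 1 scale per gene) in control, set A and set B kidneys. Points are single kidneys, and bars give the mean and SD of 4. *Cldn2* and *Cldn10* are lower and *Cldn1* and *Cldn7* higher in all 8 ischemic kidneys than in all 4 controls, while *Cldn3*, *Cldn8* and *Cldn16* have kidneys at 0 in every group.

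The members that changed, and *Cldn4*, are shown first with the bases just before their start sites, because *Cldn10* has a pair of start sites that the count table does not separate. The sequences are from RefSeq on GRCm38.p6, the assembly of mm10, which gave windows for 9 of the 10 members. Each line holds the 100 bases before the start on the strand of the gene, 5′ to 3′, with matches to GGGCGG or its reverse complement CCGCCC (the GC box) and to TATAAA in capitals. A match that runs past the start is not in capitals.
*Cldn1*, chr16:26371840-26371939, minus strand: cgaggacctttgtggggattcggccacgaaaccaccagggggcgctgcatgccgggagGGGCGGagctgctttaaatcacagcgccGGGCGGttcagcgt
*Cldn7*, chr11:69964679-69964778, plus strand: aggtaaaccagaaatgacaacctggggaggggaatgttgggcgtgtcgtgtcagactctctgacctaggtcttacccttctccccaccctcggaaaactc
*Cldn4*, chr5:134946935-134947034, minus strand: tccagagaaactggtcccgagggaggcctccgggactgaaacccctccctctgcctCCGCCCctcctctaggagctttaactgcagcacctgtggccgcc
*Cldn2*, chrX:139800708-139800807, plus strand: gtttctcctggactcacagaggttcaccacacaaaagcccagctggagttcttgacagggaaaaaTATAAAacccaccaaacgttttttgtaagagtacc
*Cldn10*, upstream start, chr14:118787771-118787870, plus strand: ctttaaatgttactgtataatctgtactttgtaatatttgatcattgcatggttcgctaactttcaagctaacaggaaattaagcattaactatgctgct
*Cldn10*, downstream start, chr14:118854850-118854949, plus strand: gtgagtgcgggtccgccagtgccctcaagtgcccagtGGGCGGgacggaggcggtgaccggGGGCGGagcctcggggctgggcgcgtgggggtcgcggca

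The start sites of *Cldn10* lie 67.1 kb apart and differ in composition, with 36.0% G and C and 4 CpG in the 300-base window of the upstream start and 72.0% and 27 CpG in that of the downstream start. The window runs from 250 bases before the start to 50 bases from it onward. The GC box occurred 2 times in the window of *Cldn1*, which rose, and 3 times in that of the downstream start of *Cldn10*, which fell. It also occurred 2 times in that of *Cldn4*, where 1 match runs across the start, and 35.7% of all 32851 RefSeq windows hold it on either strand. It was not in the window of the first *Cldn7* start, and occurred 1 time in the window of a second start 642 bases downstream, which is not shown. Windows of *Cldn3*, *Cldn12* and *Cldn19*, which had no call, held it too. *Cldn2* held TATAAA with its first base 35 bases before the start, a match found in 13.6% of all windows. TGACTCA, the letters bound by AP-1, was present 2 times in the *Cldn4* window, 158 and 240 bases before the start, beside 5.2% of all windows with at least 1 match on either strand. AACNGGTT, the letters bound by grainyhead-like factors, was in none of the members' windows, beside 2.09% of all windows. These matches are descriptions of letters only.

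*Cldn7* had the smallest adjusted p of the members in both sets. In mm10 it lies on chromosome 11 from 69964779 to 69967885 on the plus strand. The controls held 11.1, 8.44, 5.67 and 14.2 CPM. The set A kidneys held 79.7, 58.7, 68.8 and 91.6 CPM, and the set B kidneys 37.4, 64.7, 79.0 and 143.0 CPM. Every ischemic kidney was above every control, and the lowest of them, kidney 1 of set B, still lay above the highest control. Control kidneys averaged 9.87 ± 3.67 CPM (SD, n = 4), the kidneys of set A 74.7 ± 14.1 and those of set B 81.1 ± 44.9. By edgeR the log2 fold change was 2.92 (standard error 0.35, adjusted p = 2.92e-06) in set A, which is 7.56-fold. For set B it was 3.04 (standard error 0.35, edgeR adjusted p = 2.05e-06), or 8.20-fold. Each set also differed from the controls in the two-sided exact permutation test of CPM (p = 0.0286, the smallest that 4 kidneys against 4 allow).

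*Cldn1* rose by a similar factor from a lower level. The gene spans 26356642 to 26371841 of chromosome 16 on the minus strand, and 91.3 kb separate it from *Cldn16*, which is read in the opposite direction. The controls held 1.25, 8.47, 2.97 and 3.66 CPM, a spread of 75.7% of their mean. The set A kidneys were close together at 30.7, 25.2, 33.4 and 25.2 CPM, and the set B kidneys held 40.8, 34.1, 29.1 and 14.2 CPM. Neither set overlapped the controls, and kidney 4 of set B was the nearest to them. edgeR's log2 fold change was 2.79 (standard error 0.45, adjusted p = 1.12e-04) in set A, a 6.94-fold rise. For set B it was 2.84 (standard error 0.45, edgeR adjusted p = 9.7e-05), a 7.16-fold rise. The exact permutation test gave p = 0.0286 for each set.

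*Cldn10*, the most abundant member in the controls, had the largest fall. It lies on chromosome 14 from 118787908 to 118875489 on the plus strand, and its counts sum the transcripts of both start sites, which encode the a and b variants. The controls held 98.8, 87.8, 62.2 and 61.4 CPM. The set A kidneys held 12.2, 22.7, 7.55 and 6.08 CPM, and the set B kidneys 20.9, 6.2, 15.7 and 2.03 CPM. The highest ischemic kidney was far below the lowest control, and within set B the kidneys differed by more than those of the controls, with a standard deviation of 77.1% of the mean beside 24.2%. The log2 fold change was -2.68 in set A (standard error 0.52, adjusted p = 6.25e-04, edgeR), a 6.39-fold fall, and -2.78 in set B (standard error 0.52, adjusted p = 4.67e-04, edgeR), a 6.86-fold fall. Both differences had p = 0.0286 in the exact permutation test.

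*Cldn2*, on the X chromosome from 139800828 to 139811386, fell by a smaller and more even factor. Relative to their mean, the controls were the tightest group of any member with counts (SD 8.21% of the mean), at 27.0, 24.5, 24.0 and 28.5 CPM. The set A kidneys held 9.68, 11.3, 6.56 and 7.41 CPM, and the set B kidneys 6.4, 7.15, 9.52 and 12.1 CPM. No ischemic kidney reached the controls. The log2 fold change was -1.58 in set A (standard error 0.33, edgeR adjusted p = 0.00129) and -1.56 in set B (standard error 0.33, edgeR adjusted p = 0.00141), which is 2.98-fold and 2.96-fold lower. The exact permutation p was 0.0286 in each set.

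**Figure D2:**
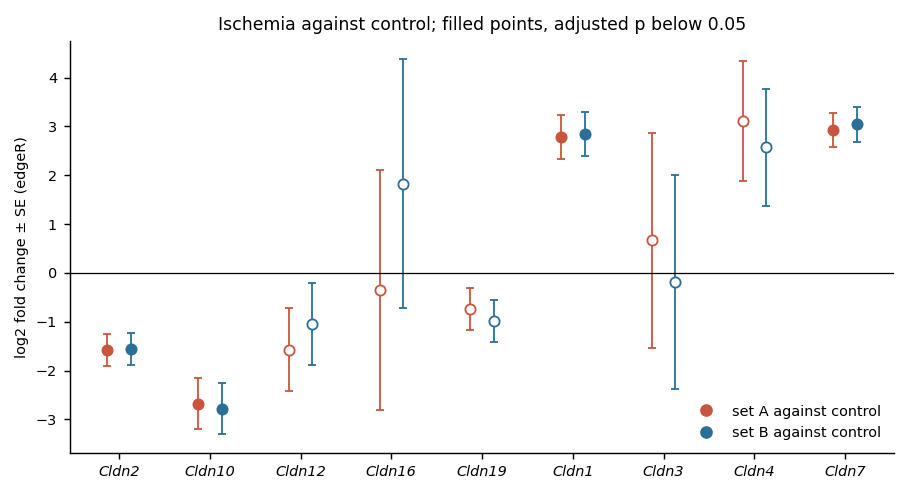
edgeR log2 fold change with its standard error (vertical axis) for the 9 tested claudins in set A and set B against control. Filled points have an adjusted p below 0.05, which holds for *Cldn1*, *Cldn2*, *Cldn7* and *Cldn10* in both sets, and the error bars of *Cldn3* and *Cldn16* span 0.

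*Cldn4*, a neighbour of *Cldn3* on chromosome 5 at a distance of 39.3 kb, had the largest fitted change of the tested members in set A but did not pass the threshold. The controls held 2.92, 0, 0 and 0.496 CPM. The set A kidneys held 10.6, 8.04, 6.3 and 4.33 CPM, all above the controls, and the set B kidneys 4.04, 3.73, 2.18 and 10.2 CPM, of which kidney 3 lay below the highest control. The log2 fold change was 3.11 (standard error 1.22, edgeR adjusted p = 0.0773) in set A and 2.57 (standard error 1.20, edgeR adjusted p = 0.14) in set B. The exact permutation test of CPM gave p = 0.0286 for set A and p = 0.0571 for set B. The outcome depended on 1 control kidney and on the method. With all kidneys kept, *Cldn4* passed for set A with DESeq2 (adjusted p = 0.0288) and for both sets with limma-trend (adjusted p = 0.00362 and 0.0118). Without control kidney 1, which held 61 counts, the log2 fold change was 5.40 in set A (edgeR adjusted p = 0.00627) and 4.83 in set B (edgeR adjusted p = 0.0115).

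*Cldn12* and *Cldn19* had lower means after ischemia without passing the threshold. For *Cldn12* the controls held 9.01, 5.33, 6.71 and 7.42 CPM and the set A kidneys 2.57, 1.45, 2.55 and 3.01 CPM, with no overlap. The set B kidneys held 5.35, 3.79, 4.59 and 0.0635 CPM, the last from 1 count, and kidney 1 just overlapped the lowest control. The log2 fold change of *Cldn12* was -1.57 in set A (standard error 0.85, edgeR adjusted p = 0.226) and -1.04 in set B (standard error 0.84, edgeR adjusted p = 0.462).

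*Cldn19* held 38.2, 24.9, 14.6 and 25.4 CPM in the controls. The set A kidneys held 16.1, 20.3, 13.4 and 12 CPM, and the set B kidneys 7.71, 4.43, 15.4 and 24.6 CPM, so that both sets overlapped the controls. The log2 fold change was -0.74 (standard error 0.43, edgeR adjusted p = 0.267) in set A and -0.98 (standard error 0.43, edgeR adjusted p = 0.116) in set B. Kidney 4 of set B decided the call in that set, since without it the log2 fold change was -1.49 with an edgeR adjusted p of 0.0129.

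*Cldn16*, *Cldn3* and *Cldn8* had kidneys without a count beside kidneys with many in the same group, and gave no usable comparison. *Cldn16*, the partner of *Cldn19* in the thick ascending limb, had 50 counts in control kidney 2 and none in the other 3 controls. In set A it had 32 counts in kidney 1 and none in the others. In set B its levels were 2.46, 0.379, 0 and 1.84 CPM. Single kidneys decided its direction, since the log2 fold change of set A against control was -0.35 with all kidneys, 5.76 without control kidney 2 and -6.12 without kidney 1 of set A.

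*Cldn3* held 0, 1.82, 0.309 and 1.38 CPM in the controls, 4.7, 0, 0.903 and 0 CPM in set A and 2.32, 0.759, 0 and 0 CPM in set B. Its log2 fold change was 0.67 (standard error 2.20) in set A and -0.18 (standard error 2.19) in set B. *Cldn8*, a collecting duct claudin, was found in 3 of the 12 kidneys, with 56 and 72 counts in control kidneys 3 and 4 and 21 counts in kidney 2 of set B. It had no count in any set A kidney, where 3 counts would be 0.0661 to 0.181 CPM. This floor covers counting error only and is no limit on the level, since the zeros of *Cldn8* did not follow depth. It had no count in control kidney 2 and 72 counts in control kidney 4, whose totals were 39155807 and 38977644. The spread within the controls left no difference of *Cldn8* to be read between the groups.

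Per kilobase of exon, the controls were led by *Cldn10* at 29.9 ± 7.23 CPM per kb (SD, n = 4), followed by *Cldn2* at 7.82 ± 0.642, *Cldn19* at 6.04 ± 2.26 and *Cldn7* at 5.07 ± 1.88 CPM per kb. The ranges of *Cldn10* and *Cldn2* did not overlap, while those of *Cldn2* and *Cldn19*, and of *Cldn19* and *Cldn7*, did. *Cldn12* came next at 1.68 ± 0.363 CPM per kb, below every *Cldn7* value, and the other 5 members had means between 0.277 and 0.844 CPM per kb with overlapping ranges. After ischemia *Cldn7* led, at 38.4 ± 7.26 CPM per kb in set A and 41.6 ± 23.1 in set B. *Cldn1* stood second in both sets with 5.91 ± 0.853 and 6.10 ± 2.34 CPM per kb, and its range was below that of *Cldn7* in each. From *Cldn1* downward, neighbouring members overlapped in both sets.

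**Figure D3:**
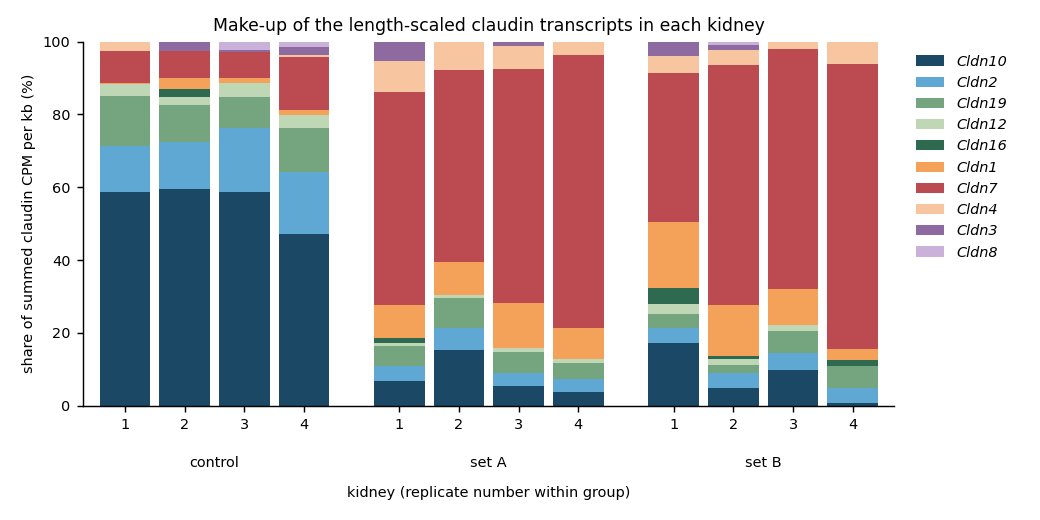
Share of each claudin in the summed CPM per kb of the 10 genes (vertical axis, percent) in each of the 12 kidneys (bars, by group and replicate). The blue *Cldn10* and *Cldn2* parts fill 64.3 to 76.3% of the control bars and 4.72 to 21.4% of the ischemic bars, where the red *Cldn7* part is the widest.

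Control kidneys held a summed level of 153 ± 29.4 CPM (SD, n = 4) of the 10 transcripts, set A kidneys 151 ± 11.7 and set B kidneys 154 ± 38.4. Summed per kilobase it was 53.3 ± 10.2, 61.1 ± 6.57 and 63.1 ± 21.5 CPM per kb. Its make-up differed. *Cldn10* and *Cldn2* together made up 71.1 ± 5.01% (SD, n = 4) of the sum per kilobase in control kidneys, beside 12.1 ± 6.31% (set A) and 12.4 ± 7.19% (set B). *Cldn7* and *Cldn1* together made up 11.1 ± 3.40%, 72.4 ± 9.43% and 74.1 ± 10.4%. These pairs were chosen after their values were seen, and the shares of 1 kidney sum to the whole, so they restate the changes above on another scale and were not tested.

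Between the ischemia sets no member passed in edgeR's quasi-likelihood test, and none had an unadjusted p below 0.05. None passed in DESeq2 or limma-trend either. Over all genes 0.00857% passed in edgeR. From set A to set B the log2 difference was 0.12 (standard error 0.32) for *Cldn7*, 0.05 (0.42) for *Cldn1*, -0.10 (0.49) for *Cldn10* and 0.01 (0.32) for *Cldn2*. The CPM ranges of the sets overlapped for all 10 members, while 2.61% of all genes did not overlap (1.29% higher and 1.32% lower in set B). Kidney 4 of set B, the shallowest library, had the highest *Cldn2*, *Cldn4*, *Cldn7* and *Cldn19* and the lowest *Cldn1*, *Cldn10* and *Cldn12* of its set. Kidney 1 of that set stood at the other end for *Cldn7*, *Cldn1*, *Cldn10* and *Cldn12*. Without kidney 4, set B differed from control by a log2 fold change of 2.61 for *Cldn7* (edgeR adjusted p = 9.89e-07), 3.07 for *Cldn1* (1.57e-05) and -2.44 for *Cldn10* (2.01e-04).

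The table lists 25 symbols made of Cldn and a number, so 15 besides the members, of which 8 had no count in any kidney and 6 passed the filter. None of the 6 passed the threshold in any comparison, and those described here were chosen after their values were seen. *Cldn25* had counts in all 12 kidneys and averaged 7.60, 9.06 and 13.6 CPM in control, set A and set B kidneys, with log2 fold changes of 0.26 and 0.84 against control (standard error 0.45 in each). Others were less precise, such as 2.36 (standard error 1.71) for *Cldn6* and 3.14 (standard error 2.40) for *Cldn14* in set A against control. *Cldn18* averaged 1.24 ± 0.968 CPM (SD, n = 4) without ischemia and had no count in any set B kidney (edgeR adjusted p = 0.0801). *Cldn5*, the endothelial claudin, averaged 1.76 ± 1.18 CPM (SD, n = 4) without ischemia, 2.82 ± 1.93 for set A and 1.61 ± 1.38 for set B. *Cldn14*, which is known to restrain the claudin-16 and claudin-19 pore, averaged 0.138 ± 0.260 CPM (SD, n = 4) without ischemia and reached at most 2.29 CPM in a set A kidney and 3.14 CPM in a set B kidney.

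The marker lists of the segments to which these claudins belong had different counts of calls and medians, and were not tested against each other. Over all genes, 11.7% were lower and 10.5% higher in set A, and 11.9% lower and 10.9% higher in set B. All 12 proximal tubule markers, among them the phosphate transporter *Slc34a1* and the endocytic receptor *Lrp2*, fell in both sets, with median log2 fold changes of -2.73 and -2.79. Their summed level was 8210 to 9220 CPM in control kidneys, 820 to 1530 for set A and 537 to 1670 for set B. *Cldn10* (-2.68 and -2.78) lay beside these medians, and *Cldn2* (-1.58 and -1.56) fell by less. Of the 6 thick ascending limb markers other than claudins, 2 fell in both sets. They were the sodium transporter gene *Slc12a1* (-3.07 and -2.56) and *Ppp1r1a* (-1.73 and -1.49), and the list medians were -1.08 and -1.19. *Cldn10*, whose counts sum both variants, lay near *Slc12a1* as well. *Umod*, the uromodulin gene, held 115 ± 3.25 CPM (SD, n = 4) without ischemia and 128 ± 35.1 and 128 ± 58.3 with it. *Cldn19* (-0.74 and -0.98) was similar in size to the medians of this list, without a call. None of the 8 principal cell markers of the collecting duct, such as the water channel genes *Aqp2* and *Aqp3*, passed in either set, with medians of -0.23 and 0.05, whereas *Cldn7* rose by 2.92 and 3.04 on the log2 scale. The principal cell markers summed to 154 to 226 CPM in control kidneys, 162 to 205 for set A and 114 to 331 for set B. Of the 10 markers of injured tubules, such as *Havcr1*, *Krt8*, *Sox9* and *Spp1*, 9 were higher in each set, and the list summed to 258 to 297 CPM in control kidneys, 2860 to 3080 for set A and 2340 to 3130 for set B. Of the 7 urothelial genes, 4 were tested and 1, the keratin gene *Krt5*, rose in each set, while the uroplakin genes *Upk2* and *Upk3b* had no count in any kidney. The urothelial list summed to 10 to 16.7 CPM in control kidneys, 66.1 to 165 for set A and 76.0 to 274 for set B, and most of it was *Krt5* (means of 9.38, 117 and 148 CPM). The uroplakin gene *Upk1a* averaged 1.55, 0.451 and 0.0158 CPM and *Upk1b* 1.72, 1.07 and 1.27 CPM in the same order, and *Trp63*, a basal cell transcription factor gene, 1.09, 2.68 and 3.45 CPM, all without a call. The part that cell composition has in the claudin changes was not tested.

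**Figure D4:**
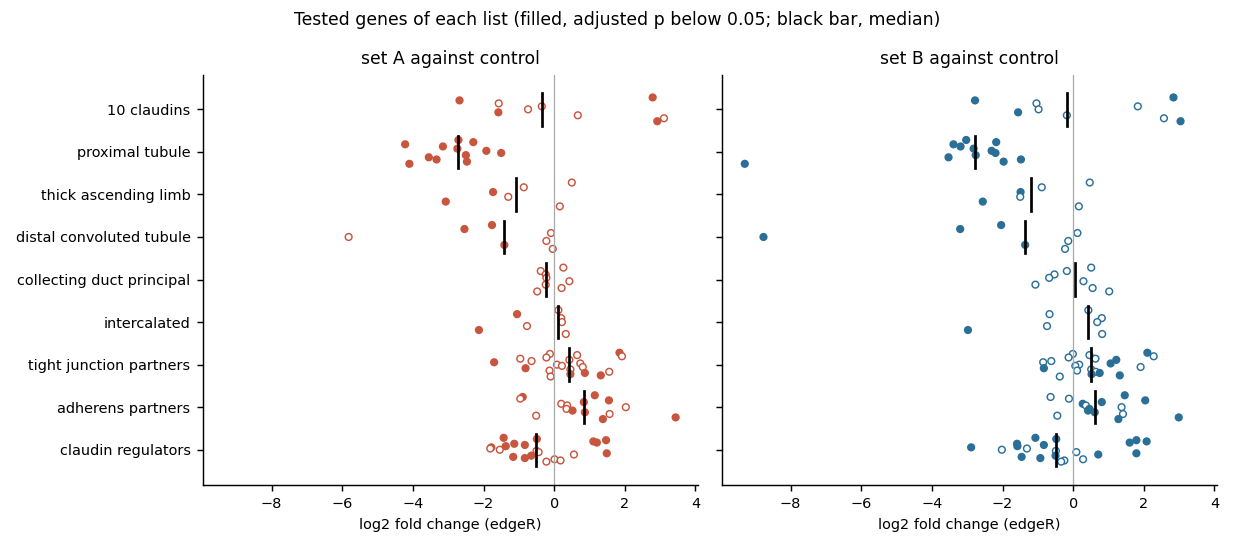
edgeR log2 fold change (horizontal axis) of each tested gene in 9 lists, for set A and set B against control. Filled points have an adjusted p below 0.05, black bars are list medians, and the thick ascending limb list is drawn without its claudins. The proximal tubule list lies wholly below 0 and no collecting duct principal cell gene is filled.

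Among 21 tested partners of the claudins at the tight junction, 4 were higher and 2 lower in set A, beside 10.5% and 11.7% of all genes. In set B 6 were higher and 1 lower, beside 10.9% and 11.9% of all genes, with median log2 fold changes of 0.43 and 0.51. *Cgn*, which encodes cingulin, a link between the junction and actomyosin, rose from a control mean of 7.15 ± 4.28 CPM (SD, n = 4) to 25.8 ± 7.75 (set A) and 30.7 ± 7.11 (set B), with edgeR log2 fold changes of 1.85 and 2.10. *Mpp5*, the polarity scaffold also called *Pals1*, fell from 185 ± 17.5 to 105 ± 10.8 and 104 ± 10.4 CPM (log2 fold changes of -0.81 and -0.83). *Jam3*, an adhesion molecule of the junction, fell in set A (-1.70, edgeR adjusted p = 0.0334) and had a log2 fold change of -0.85 in set B (edgeR adjusted p = 0.324).

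Among 15 genes of the adherens junction and related adhesion, 7 were higher and 1 lower in set A (10.5% and 11.7% of all genes) and 9 were higher and none lower in set B (10.9% and 11.9% of all genes), with medians of 0.84 and 0.61. *Vcl*, the gene of the actin linker vinculin, rose by 1.38 and 1.28 on the log2 scale. *Cdh16*, the kidney cadherin, fell in set A (-0.89, edgeR adjusted p = 0.0307) and stood at -0.64 in set B (edgeR adjusted p = 0.122). *Cdh2* had log2 fold changes of -0.96 and -0.12 without a call. *Epcam*, which encodes a binding partner of claudin-7 and is named here after its values were seen, averaged 1.52 ± 1.16 CPM without ischemia, 6.23 ± 2.92 for set A and 3.96 ± 3.28 for set B (edgeR adjusted p = 0.125 and 0.324).

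Of 21 tested genes known to act on claudins, 4 were higher and 9 lower in set A, and 5 were higher and 9 lower in set B, beside the same shares of all genes (10.5% and 11.7%, and 10.9% and 11.9%). The transcription factor gene *Grhl2*, a grainyhead-like regulator of epithelial junction genes, rose from 20.6 ± 4.76 CPM (SD, n = 4) to 47.6 ± 16.8 (set A) and 62.7 ± 45.2 (set B) (edgeR log2 fold change 1.21 and 1.60). *St14*, the gene of the membrane protease matriptase, rose by 1.49 and 1.79. The kinase gene *Wnk1* fell from 1430 ± 114 CPM to 804 ± 58.0 and 750 ± 43.3 (-0.83 and -0.93), and *Vdr*, the vitamin D receptor gene, fell by 1.16 and 1.46 on the log2 scale. *Casr*, the calcium-sensing receptor gene of the thick ascending limb, named after its values were seen, fell by 1.43 and 1.07 on the log2 scale.

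In a list of 19 genes of magnesium and calcium handling, 1 was higher and 7 lower in set A (10.5% and 11.7% of all genes), and 2 were higher and 7 lower in set B (10.9% and 11.9%). *Egf* fell from 206 ± 16.1 CPM (SD, n = 4) to 3.99 ± 2.50 and 1.55 ± 1.33, and *Trpm7*, a magnesium channel gene, fell by 1.06 and 0.98 on the log2 scale. *Slc41a1*, a magnesium exchanger gene, rose by 0.95 and 0.72, and the calcium pump gene *Atp2b4* had log2 fold changes of 0.49 and 0.34 without a call.

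For each of the 9 tested members, so without *Cldn8*, the genes whose level ran closest over the 12 kidneys were sought. They were found by the root mean square difference of log2 CPM from the control mean, among genes averaging 3 or more in log2 CPM. *Cldn2* was closest to *Aldh1l1*, at 0.21 on the log2 scale, and to *Idh2*, at 0.23. *Cldn7* was closest to *Mt1* (0.34) and *Itpr3* (0.37), and *Cldn10* to *Slc22a8* (0.42), an organic anion transporter gene of the proximal tubule, and *St8sia1* (0.47). *Cldn19* was closest to *Rassf3* (0.40) and *Cnnm2* (0.44), the latter a magnesium handling gene of the distal nephron. *Cldn1* was closest to *Tmem43* (0.47) and *Tubb5* (0.66), and *Cldn12* to *Bcl11b* (0.75) and *Ctdspl* (0.83). The sparse members had no close neighbour, with 1.20 for *Cldn4* and *Clcf1* and 1.22 for *Lrp8*, 1.53 and 1.74 for *Cldn3* with *Coq10b* and *Mpdz*, and 1.61 and 1.72 for *Cldn16* with *Commd9* and *Ncapd2*.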

How the data were processed

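Stranded mRNA libraries of 12 kidneys were sequenced as single reads by the authors, mapped to mm10 with STAR and counted per gene with HTSeq, and raw counts were deposited without normalization. Tool versions, the annotation release, the strand setting and the treatment of reads shared by similar claudin genes are not given in the sources used here. Genes were filtered with edgeR 4.0.16 defaults (minimum count 10, minimum total 15) and scaled by TMM. All 12 kidneys entered 1 quasi-likelihood fit without a block, and 3 contrasts were tested two-sided with Benjamini-Hochberg adjustment over all genes. Standard errors are the absolute log2 fold change over the square root of F. CPM were compared by exact permutation. p-values reflect the spread between kidneys, which were treated as independent. On simulated counts of 11664 genes for set A against control, 38 of 50 genes changed 16-fold and 17 of 50 changed 2-fold were recovered. Alternatives were DESeq2 1.42.0, limma-trend (limma 3.58.1), RLE factors, other filters, 2 groups only, a replicate block, unscaled CPM and leaving out each kidney. Positions and exon lengths are from GENCODE on GRCm38. The 10 members and all lists were chosen with earlier results of these data known. All members were named, from each related list at most 4 genes (the 2 smallest p in each direction in set A), other claudins if called, and the 2 nearest genes of each tested member. Segment and cell type markers are named as examples of their lists. *Epcam*, *Casr* and the other claudins described fall outside this rule and were chosen after their values were seen. Some genes that this rule names are not reported here.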

Additional observations from a re-analysis of the deposited data

Results flagged for a closer look

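In 4 of the 29 groups of 4 kidneys with any spread, a single kidney lay far above the others of its group. For evenly spread values chance sets apart a kidney in about 1 of 20 such groups, a rate that does not apply to 3 of the 4 cases, in which the other kidneys were all at 0. All 4 cases are sparsely counted members. *Cldn4* held 2.92 CPM (61 counts) in control kidney 1, with the next control at 0.496 CPM. *Cldn8* held 1.33 CPM (21 counts) in kidney 2 of set B and no count in the other 3 kidneys of the set. *Cldn16* held 1.30 CPM (50 counts) in control kidney 2 and 1.02 CPM (32 counts) in kidney 1 of set A, and no count in the other kidneys of either group. No member differed between set A and set B in edgeR's test of that difference.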

How the results depend on the processing

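The calls of *Cldn1*, *Cldn2*, *Cldn7* and *Cldn10* against control held, in direction and in edgeR, DESeq2 or limma adjusted p, under all 19 alternatives in both sets, and 4 to 5 members were called in each set in every setting, beside 2142 to 3039 of all genes for set A and 2213 to 3149 for set B. The fifth was *Cldn4* with DESeq2 (set A, adjusted p = 0.0288), limma-trend (set A 0.00362, set B 0.0118), the replicate block (set A 0.0283) and without control kidney 1, or *Cldn19* in set B without kidney 4. Over all genes, set B against set A gave 1 call, 44 with DESeq2, 6 with no filter, 0 with only the 2 groups compared, 0 with limma-trend, and 0 to 7 with a kidney left out. The values that turned were from comparisons in which the member had no call. With limma-trend they were -0.40 for *Cldn3* in set A against control and, in set B against set A, -0.05 for *Cldn1*, 0.00 for *Cldn2*, -0.03 for *Cldn7* and -0.32 for *Cldn12*. Leaving out a kidney gave ranges of -6.12 to 5.76 for *Cldn16* and -1.48 to 1.32 for *Cldn3* in set A, and -1.80 to 0.46 for *Cldn3* in set B. In set B against set A they were -2.45 to 1.32 for *Cldn3*, -0.15 to 0.28 for *Cldn1*, -0.18 to 0.16 for *Cldn2*, -0.31 to 0.35 for *Cldn7*, -0.60 to 0.39 for *Cldn10* and -0.75 to 0.04 for *Cldn19*. The cause was not tested.

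Same-numbered kidneys of different groups had correlations of -0.06 to 0.05, beside -0.06 to 0.08 for the other pairs. With 4 kidneys per group, and numbers that need not follow the mice, this cannot show whether kidneys of different groups shared a mouse. With the replicate block, 2491 genes were called in set A, 2531 in set B and 1 between the sets, beside 2599, 2659 and 1 without it. The block gave 5 and 4 members, -1.22 for *Cldn3* in set A, and -0.02 for *Cldn1* and 0.00 for *Cldn2* between the sets. *Cldn3*, *Cldn8* and *Cldn16* had kidneys without a count in every group. Those of *Cldn8* and *Cldn16* did not follow depth, while the 5 of *Cldn3* were in libraries of 15367342 to 23035985 counts.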

Other observations

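Markers of other kidney cells were read beside the claudins. Over all genes, 10.5% were higher and 11.7% lower in set A, and 10.9% higher and 11.9% lower in set B. In lists this small, a single call lies near these shares. Of 7 podocyte genes, 3 (*Podxl*, *Synpo* and *Wt1*) were higher in each set by edgeR's test, and the list summed to 169 to 212 CPM in control kidneys, 205 to 373 for set A and 238 to 352 for set B. Of 7 intercalated cell genes, *Atp6v1b1* and *Slc4a1* fell in set A and *Slc4a1* fell in set B. Of 7 distal convoluted tubule genes, *Calb1*, *Slc8a1* and *Kl* fell in both sets, and *Pvalb* fell in set B. None of the 7 tested endothelial genes other than *Cldn5* passed in either set. Of 7 tested genes of fibroblasts and mural cells, 5 were higher in each set. Of 5 tested leukocyte genes, 2 (*Csf1r* and *Cd3e*) were lower in each set, and *S100a8* and *Cd79a* had no count in any kidney. The fat genes *Adipoq*, *Plin1*, *Cfd* and *Lep*, the adrenal genes *Cyp11a1*, *Cyp11b1*, *Cyp11b2*, *Cyp21a1* and *Hsd3b1* and the globin genes *Hba-a1* and *Hba-a2* had no count in any kidney. Of the other fat, adrenal and red cell genes tested, the red cell gene *Alas2* was lower in set B and no other passed.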
